A study of Mus musculus with 2 samples.

Results

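Retinoid signalling genes were read in RNA from mouse frontal cortex: the nuclear receptors Rara, Rarb, Rxra, Rxrb and Rxrg, the carriers Rbp4 and Crabp1, the retinoic acid producing enzyme Aldh1a1 and the retinoic acid degrading enzyme Cyp26b1. They were chosen by name, through their GENCODE identifiers, and are 9 of the 43346 annotated genes and 34 of the 103639 annotated transcripts in the quantifications. All 9 were found. The 2 libraries form 1 group of C57BL/6J mice at an age of 8 weeks, with no treatment and no second genotype. Both come from littermates pooled across sexes according to the labels, which give both libraries the same donor entry and an unknown health state. Each library holds rRNA-depleted, polyadenylated RNA over 200 nt, read as stranded pairs, with spike-in RNAs added. Because there is 1 group, no condition was compared, and the SD describes the spread of 2 libraries that the labels call biological replicates. Fewer cells of a type and less RNA per cell cannot be told apart in such bulk tissue.

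Retinol travels in blood bound to Rbp4, enters cells and is oxidised first to retinal and then, by the Aldh1a enzymes, to retinoic acid. Crabp1 holds retinoic acid in the cytoplasm, and Cyp26 enzymes oxidise it for removal. What remains binds retinoic acid receptors (RARs), which sit on DNA as heterodimers with retinoid X receptors (RXRs), often at direct repeats of a short half-site. In the adult forebrain retinoic acid is known for its part in synaptic plasticity, and the meninges are known as a source of it.

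The libraries held 106084891 and 90476207 expected counts (estimated fragments), of which 3.50% and 3.47% were spike-in RNA. Counts of the 2 replicates differed beyond sampling noise, with a chi-square of 52.7 per degree of freedom over 20323 genes, so they are not 1 library deposited again. The libraries also differed in a way their labels do not describe. For Xist, a marker of cells with an inactive X, 107 counts were found in replicate 1 and 77696 in replicate 2, whereas the Y-linked Eif2s3y had 7150 and 3. Any difference between the libraries therefore cannot be told apart from that sex-linked split. All 7 markers of cortical excitatory neurons were present, led by Slc17a7 at 447 and 401 TPM (transcript abundance relative to all transcripts, corrected for length). Genes listed as markers of neighbouring regions were present too. All 8 of the olfactory bulb list passed 1 TPM and summed to 415 and 418 TPM. Doc2g led them at 149 and 161 TPM, and Slc32a1 followed at 81.4 and 86.0 TPM. Slc32a1 is not particular to the bulb, so that sum does not measure bulb tissue alone. Of the other listed genes, Th had 68.8 and 66.6 TPM, Cdhr1 64.7 and 54.3, and Ntng1 16.9 and 15.1. Eomes had 15.1 and 14.2 TPM, Sp8 13.6 and 16.3, and Tbx21 5.01 and 4.98. Of 10 markers of striatal projection neurons, 9 passed 1 TPM, and their sum was 206 and 251 TPM. The part of such neighbouring tissue in the levels below was not tested.

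The receptor element that retinoic acid is best known to act through was looked for around the start sites, because a member that carries it can be read beside its own level. RefSeq windows (build GRCm38.p6, which is mm10) from 250 bases before to 50 bases after each start matched 9 of 9 members in 17 windows. Direct repeats of the half-site AGGTCA and its variants, which are AGTTCA and also GGGTCA and lastly GGTTCA, were searched on both strands. With a spacer of 5 bases (DR5) they stood in 32 of 32851 windows, 0.0974% of all, and in 1 of the 17 member windows, that of Rarb. Spacers of 1 and 2 bases occurred in 0.222% and 0.268% of all windows and in 0 of 17 member windows, which says only that these letters are not there. Of 77 windows of pathway genes outside the members, 1 held a spacer of 1 base, that of Bco1, which cleaves carotene, and 0 held a spacer of 2. Among the pathway genes outside the members, the Cyp26a1 window also held a DR5, on the other strand. Both elements are shown on the gene's strand, 5′ to 3′, with the half-sites in capitals.
Rarb DR5, chr14:16575513-16575529, minus strand: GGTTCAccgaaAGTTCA
Cyp26a1 DR5, chr19:37697776-37697792, plus strand: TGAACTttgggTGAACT
The Rarb repeat lay 53 to 37 bases before the RefSeq start, and inside an exon of Rarb in GENCODE M21, which begins further upstream there. The Cyp26a1 repeat lay 32 to 16 bases before its start. A match is a description of sequence and not evidence of binding. The genes themselves sat at different levels: Rarb had 3.64 and 3.37 TPM, whereas Cyp26a1 had 1 count in replicate 1 and 7 in replicate 2.

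**Figure D1:**
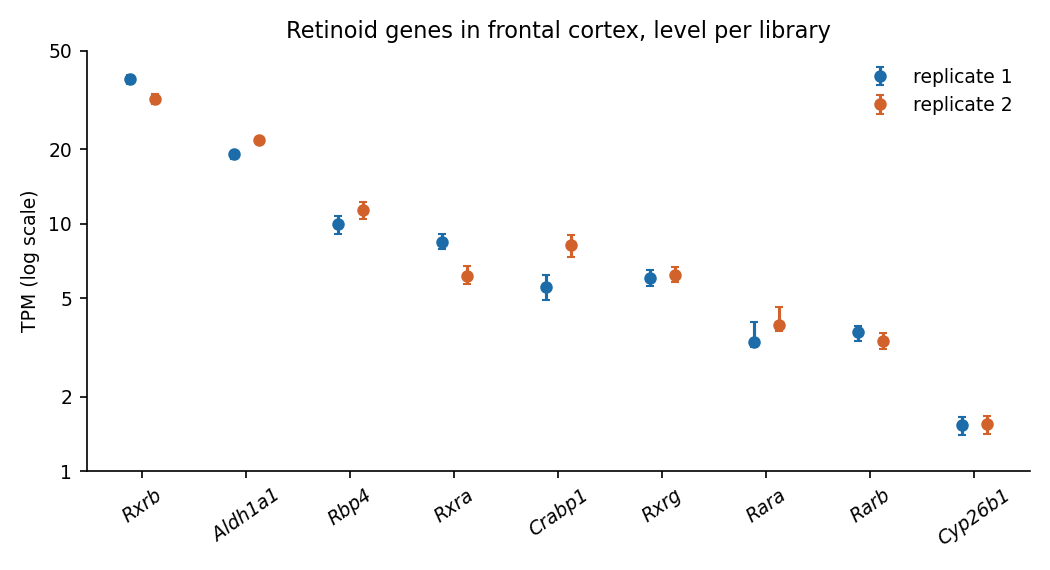
Deposited TPM (y axis, log scale) of each of the 9 genes (x axis) in replicate 1 and replicate 2, with the deposited interval of each value as a bar. Rxrb was highest at 38.3 and 32.0 TPM and Cyp26b1 lowest at 1.54 and 1.55 TPM, and the order of Rxra and Crabp1 changed between the libraries.

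All 9 genes were above 1 TPM in both libraries, and they spanned a wide range of levels. Rxrb led at a mean of 35.2 ± 4.48 TPM (SD, n = 2), followed by Aldh1a1 at 20.5 ± 1.91, Rbp4 at 10.7 ± 0.997 and Rxra at 7.27 ± 1.63. Crabp1 at 6.90 ± 1.87, Rxrg at 6.11 ± 0.0990, Rara at 3.60 ± 0.403 and Rarb at 3.50 ± 0.191 came next, and Cyp26b1 closed the order at 1.54 ± 0.00707. Among 21474 protein-coding genes, whose median was 4.10 TPM, 14.6% stood above Rxrb, 23.6% above Aldh1a1 and 58.8% above Cyp26b1. Neighbours in the order were held to differ where each library gave the same direction, the mean log2 ratio was larger than its SD, and the deposited TPM intervals of the pair did not touch in either library. By that rule 5 of 8 neighbouring pairs differed. The 3 that did not were Rxra and Crabp1, Crabp1 and Rxrg, and Rara and Rarb. No p-value is given: an exact two-sided sign-flip test over 2 libraries cannot go below p = 0.5.

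Rbp4, the plasma carrier of retinol (chr19:38116629-38125281, minus strand; gene coordinates are those of GENCODE M21 on mm10), had 9.96 TPM in replicate 1 and 11.4 TPM in replicate 2, from 601 and 624 counts. The deposited intervals, 9.10 to 10.7 and 10.4 to 12.2 TPM, overlapped. Stra6, the membrane receptor through which Rbp4 hands over retinol, was lower at 2.96 and 3.72 TPM. Transthyretin (Ttr), the partner of Rbp4 in plasma and an abundant product of the choroid plexus, had 0.93 and 0.85 TPM. Liver markers were low: all 6 summed to 3.37 and 6.02 TPM, albumin (Alb) had 7 and 152 counts, and Serpina1a and Fgb were under 0.1 TPM in each library. The most abundant of them were Apoa2, at 2.04 and 2.58 TPM, and Apoa1, at 1.24 and 2.04 TPM. All 6 had a positive log2 ratio of replicate 2 to replicate 1, as did Rbp4 (0.33). A positive ratio was also found for 7224 of 14599 genes at a mean of 1 TPM or more, a level that 2 of the 6 liver markers reached. The liver ratios were 4.34 for Alb, 2.28 for Fgb, 2.10 for Ahsg, 1.68 for Serpina1a, 0.82 for Apoa1 and 0.38 for Apoa2. Several rest on few counts: Ahsg had 4 and 20, Fgb 1 and 11, and Serpina1a 0 and 4. The exact counting intervals of Apoa2, from -0.20 to 0.99, and of Serpina1a, from -0.32 upwards, included 0. The part of these liver markers in the level and ratio of Rbp4 was not tested.

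Of 4 GENCODE M21 transcripts of Rbp4, 2 were quantified, so other forms could not be separated. Nearly all quantified Rbp4 RNA was assigned to transcript Rbp4-202, at 97.7% and 94.2% of the gene's TPM. The remainder was assigned to Rbp4-201, which starts upstream. The sequences before both starts are shown because the windows differ in composition. Each is the stretch upstream of the start that lies in no Rbp4 exon of GENCODE M21, on the gene's strand, and capitals mark the letters TATAAA.
Rbp4-202 upstream, chr19:38124829-38124954, minus strand: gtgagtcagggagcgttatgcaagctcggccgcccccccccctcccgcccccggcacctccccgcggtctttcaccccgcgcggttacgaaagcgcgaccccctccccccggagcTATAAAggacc
Rbp4-201 upstream, chr19:38125322-38125571, minus strand: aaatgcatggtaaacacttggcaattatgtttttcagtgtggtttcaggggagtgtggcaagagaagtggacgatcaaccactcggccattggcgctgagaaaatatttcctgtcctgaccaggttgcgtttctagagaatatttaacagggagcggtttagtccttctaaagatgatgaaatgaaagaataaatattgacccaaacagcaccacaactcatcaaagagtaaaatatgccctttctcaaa
The whole window of the used start had 72.0% G or C and 40 CG dinucleotides, against a median of 52.7% and 7 over all windows. TATAAA stood there 28 bases before the RefSeq start. On the gene's strand that motif was found in 8.32% of all windows, and on either strand in 13.6%. The window of Rbp4-201 had 40.7% G or C and 5 CG dinucleotides.

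Crabp1, the cytoplasmic retinoic acid binding protein (chr9:54764748-54773110, plus strand), had 5.57 TPM in replicate 1 and 8.22 TPM in replicate 2, from 274 and 361 counts. It is the member whose level depended most on the library, and its intervals, 4.92 to 6.23 and 7.32 to 9.00 TPM, were apart. Crabp2, the relative that delivers retinoic acid to receptors in the nucleus, had 5.70 and 4.54 TPM. The log2 ratio of Crabp1 to Crabp2 was -0.03 in replicate 1 and 0.86 in replicate 2, and the pair was not resolved. Fabp5, a fatty acid binding protein that can also carry retinoic acid, was far above both at 119 and 83.1 TPM. Rlbp1, a carrier of retinal, had 19.4 and 14.6 TPM.

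Aldh1a1 (chr19:20492715-20643465, plus strand), which turns retinal into retinoic acid, had 19.1 TPM in replicate 1 and 21.8 TPM in replicate 2, from 2919 and 3006 counts. Aldh1a2, the enzyme best known from the meninges, had 8.01 and 5.38 TPM, and Aldh1a3 had 1.20 and 1.52 TPM. Aldh8a1, a more distant retinal dehydrogenase, had 0.12 and 0.09 TPM. Aldh1a1 was therefore the most abundant of Aldh1a1, Aldh1a2 and Aldh1a3 in each library, with 67.5% and 76.0% of their summed TPM. It exceeded Aldh1a2 by 1.64 ± 0.54 and Aldh1a3 by 3.92 ± 0.11 on the log2 scale (SD, n = 2), both beyond the spread. Aldh1a1 is also known from midbrain dopamine neurons, whose markers were low here: 3 of 7 reached 1 TPM, led by Ddc at 4.85 and 4.09 TPM and Slc6a3 at 2.05 and 1.72 TPM, while En1 and Foxa2 each had 1 count in replicate 1 and 0 in replicate 2. Th, the enzyme that opens dopamine synthesis in midbrain and olfactory bulb neurons alike, was counted in the olfactory bulb list and was high, at 68.8 and 66.6 TPM. Aldh1a2 had a log2 ratio of replicate 2 to replicate 1 of -0.44. A negative ratio was found for 8 of 9 meninges markers, itself included, and for 7374 of 14599 genes at a mean of 1 TPM or more. The meninges list summed to 1595 and 1111 TPM, of which Ptgds alone had 1513 and 1051 TPM, so the sum mostly follows that 1 gene. Igf2 came next at 42.1 and 29.99 TPM, and none of the list was at 0. The part of meningeal tissue in the split between Aldh1a1 and Aldh1a2 was not tested.

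All Aldh1a1 reads were assigned to Aldh1a1-201, the only 1 of its 6 transcripts of GENCODE M21 that the files hold, so other forms could not be separated. The stretch before its start is shown because the most abundant enzyme here has a window with 47.0% G or C and 1 CG dinucleotide.
Aldh1a1-201 upstream, chr19:20601718-20601960, plus strand: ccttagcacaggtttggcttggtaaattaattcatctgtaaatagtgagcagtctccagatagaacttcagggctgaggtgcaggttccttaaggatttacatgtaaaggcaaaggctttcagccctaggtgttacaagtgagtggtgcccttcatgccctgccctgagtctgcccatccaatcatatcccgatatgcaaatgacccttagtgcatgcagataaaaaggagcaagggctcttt

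Cyp26b1 (chr6:84571414-84593908, minus strand), which inactivates retinoic acid, had 1.54 TPM in replicate 1 and 1.55 TPM in replicate 2, from 571 and 521 counts, the smallest SD of TPM among the members. It was the only Cyp26 gene with more than 7 counts. Cyp26a1 had 1 and 7 counts, and per length Cyp26b1 exceeded it 199-fold in replicate 1, with an exact 95% counting interval of 35.6 to 7872, and 25.8-fold in replicate 2, with an interval of 12.5 to 64.6. Cyp26c1 had 0 counts in both libraries. With 3 counts per library as the limit that a count of 0 allows, 0.0236 and 0.0261 TPM, Cyp26b1 was at least 65.2-fold and 59.3-fold higher. Set against synthesis, Cyp26b1 was lower than Aldh1a1 by a log2 ratio of -3.72 ± 0.13 (SD, n = 2). Of 5 GENCODE M21 transcripts of Cyp26b1, 2 were quantified. The expected counts gave all Cyp26b1 fragments to Cyp26b1-202, whereas the posterior means left 17.35% and 14.8% of its TPM to Cyp26b1-201.

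Among the RARs, Rara (chr11:98927818-98974942, plus strand), the form known from synaptic scaling, had 3.32 TPM in replicate 1 and 3.89 TPM in replicate 2, from 700 and 726 counts. Rarb (chr14:16430839-16819156, minus strand), whose gene is a classical retinoic acid target, had 3.64 and 3.37 TPM, from 851 and 713 counts. The intervals overlapped between the libraries for both genes, and the log2 ratio of Rara to Rarb was -0.13 in replicate 1 and 0.21 in replicate 2, so their order was not resolved. Rarg, the remaining RAR, was above both at 5.34 and 5.54 TPM. The log2 ratios to Rarg were -0.60 ± 0.12 for Rara and -0.64 ± 0.12 for Rarb (SD, n = 2), beyond the spread. Of 12.3 and 12.8 TPM summed over the 3 RARs, Rarg took 43.4% and 43.3%, Rara 27.0% and 30.4%, and Rarb 29.6% and 26.3%.

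Rarb shares 1793 exonic bases with Top2b, a topoisomerase gene on the opposite strand, in GENCODE M21. Top2b had 25.5 and 21.4 TPM, far more than Rarb. The libraries are stranded by their labels, and whether strand was used in counting is not given in the sources used here. Rarb's expected counts were whole numbers with a posterior SD of 0 in both libraries, so no fragment was divided between Rarb and another gene. The same held for the gene counts of all 9 members, and no fragment was split between related receptors.

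RXRs were more abundant. Rxrb (chr17:34031812-34038399, plus strand) had 38.3 TPM in replicate 1 and 32.0 TPM in replicate 2, from 5600 and 4301 counts. Rxra (chr2:27676440-27762957, plus strand) had 8.42 and 6.12 TPM, from 2475 and 1684 counts. Rxrg (chr1:167598384-167639623, plus strand), the form known from striatal neurons, had 6.04 and 6.18 TPM, from 910 and 859 counts. Rxrb was above its relatives in each library, by a log2 ratio of 2.29 ± 0.14 over Rxra and 2.52 ± 0.21 over Rxrg (SD, n = 2). Rxra exceeded Rxrg in replicate 1, with a log2 ratio of 0.48, but not in replicate 2, with -0.01. The 3 RXRs summed to 52.8 and 44.3 TPM, of which Rxrb took 72.6% and 72.2%. Summed RXR exceeded summed RAR 4.29-fold in replicate 1 and 3.46-fold in replicate 2. The RXR sum includes 9.21 and 6.71 TPM of Rxrb transcripts annotated as retained introns. It also includes 0.98 and 0.93 TPM of a non-coding Rxra transcript, whereas all TPM of Rara and Rarb lay in protein-coding transcripts. No fold was taken on protein-coding transcripts alone.

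**Figure D2:**
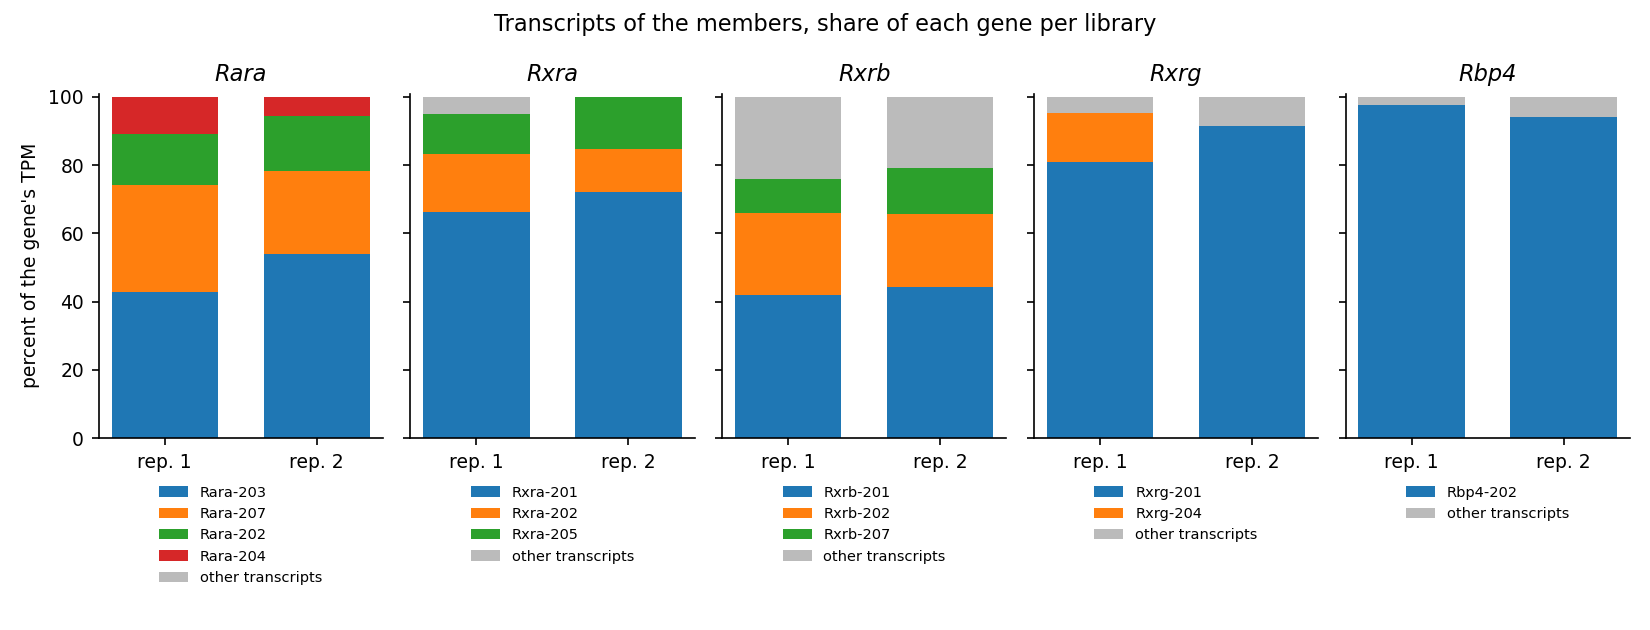
Percent of each gene's TPM (y axis) taken by transcripts with 10% or more in either library, for the 5 members with a second transcript above 0 in the deposited percentages (columns are replicate 1 and replicate 2; grey pools the remaining transcripts). Rxrg-201 took 81.0% and 91.3% of Rxrg, whereas Rara and Rxrb were spread over several transcripts.

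The receptors differed in how far their RNA was spread over transcripts. Several transcripts were quantified for 6 members, and in 6 of 6 the same transcript had the highest deposited percent in both libraries. That lead was not held to the interval rule used for gene pairs. In replicate 1 the TPM intervals of Rara-203 (0.954 to 1.83) and Rara-207 (0.507 to 1.31) overlapped. Those of Cyp26b1-202 (0.587 to 1.63) and Cyp26b1-201 (up to 0.885) did too. Rara-203 led Rara with 42.7% and 54.0% of its TPM, ahead of Rara-207 with 31.4% and 24.3%, Rara-202 with 15.0% and 16.2% and Rara-204 with 10.9% and 5.45%. Rara-203 starts upstream of the others, and no RefSeq window lies at its start. Rxrb-201 took 41.9% and 44.2% of Rxrb, Rxrb-202 took 24.2% and 21.4%, and Rxrb-207 took 9.89% and 13.4%. A further 22.5% ± 2.16 of Rxrb TPM (SD, n = 2) lay in 6 transcripts annotated as retained introns. Being shorter than Rxrb-201, these held 6.72% and 5.99% of the gene's expected counts. The protein-coding transcripts of Rxrb summed to 29.1 and 25.3 TPM. Rxrg-201 took 81.0% and 91.3% of Rxrg. Rxrg-204 had 14.3% in replicate 1 and 0 in replicate 2, where its deposited interval still reached 0.829 TPM. For Rarb the files hold 1 of 7 GENCODE M21 transcripts, and all its reads were assigned to Rarb-201.

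Rxra-201 led Rxra with 66.4% and 72.0%, Rxra-202 followed with 17.0% and 12.8%, and the non-coding Rxra-205 had 11.6% and 15.2%. The starts of Rxra-201 and Rxra-202 lie apart on chromosome 2, and the 250 bases before each are shown because their composition differs sharply.
Rxra-201 upstream, chr2:27676951-27677200, plus strand: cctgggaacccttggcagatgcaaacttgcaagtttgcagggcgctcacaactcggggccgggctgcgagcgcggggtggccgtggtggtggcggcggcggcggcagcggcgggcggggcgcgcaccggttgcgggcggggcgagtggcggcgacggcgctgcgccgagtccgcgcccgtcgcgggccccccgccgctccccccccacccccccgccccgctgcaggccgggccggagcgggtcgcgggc
Rxra-202 upstream, chr2:27709042-27709291, plus strand: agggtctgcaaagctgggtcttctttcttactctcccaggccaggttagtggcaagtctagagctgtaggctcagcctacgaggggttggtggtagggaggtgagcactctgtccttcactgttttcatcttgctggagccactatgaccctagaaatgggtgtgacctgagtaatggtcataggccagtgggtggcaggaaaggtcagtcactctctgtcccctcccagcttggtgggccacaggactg
The window of Rxra-201 had 83.0% G or C and 55 CG dinucleotides, and that of Rxra-202 had 54.3% and 1. For Rxrb, the start shared by Rxrb-201, Rxrb-204 and Rxrb-207 had 53.9% and 59.9% of the gene's TPM, and its window held 68.7% G or C and 37 CG dinucleotides. The stretch before it is shown as that of the most abundant receptor.
Rxrb-201 upstream, chr17:34031562-34031811, plus strand: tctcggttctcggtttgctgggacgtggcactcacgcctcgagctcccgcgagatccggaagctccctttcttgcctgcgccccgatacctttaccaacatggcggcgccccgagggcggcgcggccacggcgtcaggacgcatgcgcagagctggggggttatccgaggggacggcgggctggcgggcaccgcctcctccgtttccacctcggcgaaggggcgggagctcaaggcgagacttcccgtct

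**Figure D3:**
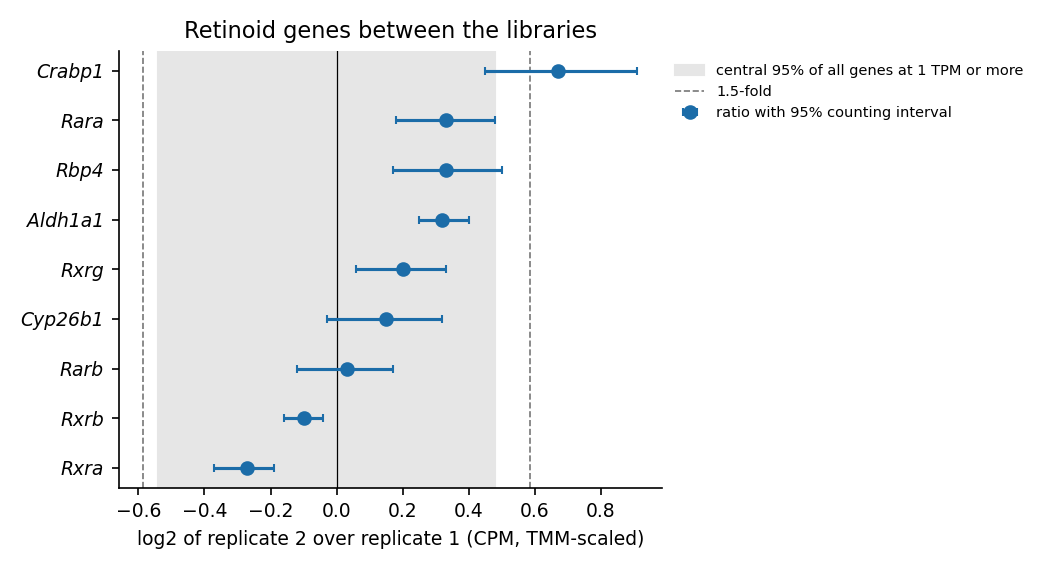
Log2 ratio of replicate 2 to replicate 1 in scaled CPM (x axis) for each of the 9 genes (y axis), with exact 95% counting intervals as bars, the central 95% of all genes as a grey band and 1.5-fold as dashed lines. Crabp1 at 0.67 lies outside the band, which runs from -0.54 to 0.48, and the other 8 lie inside it.

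Between the libraries most members changed less than 1.5-fold, although most moved further than the bulk of genes. The 25% and 75% points of all genes lay at log2 ratios of -0.10 and 0.10. Ratios were taken on CPM (counts relative to library size) scaled by the trimmed mean of M-values, with a prior count of 2, and a gene was counted where it changed 1.5-fold or more. Crabp1 was 1 of 9 members past that size, higher in replicate 2, where 249 of 14599 genes at a mean of 1 TPM or more (1.71%) were. In the other direction 0 of 9 members and 313 of 14599 genes (2.14%) passed. For Crabp1 the log2 ratio was 0.67, with an exact 95% counting interval of 0.45 to 0.91 that covers counting error only and includes values under 1.5-fold. In TPM with a pseudocount of 1 its ratio was 0.49, and 0 members passed. Rara and Rbp4 had 0.33 each and Aldh1a1 0.32, and 5.40%, 5.34% and 5.70% of all genes had a ratio at least as high. Rxrg had 0.20 and Cyp26b1 0.15, and the interval of Cyp26b1 included 0. Rxra had -0.27 and Rxrb -0.10, and their intervals excluded 0. For Rarb the ratio was 0.03, and its sign turned to between -0.01 and -0.09 when scaled by library size, by spike-ins or in TPM. In all, 7 of 9 members had a positive ratio, as did 7224 of 14599 genes, with a median of 0.20 against -0.00 over all genes. Scaled by library size, by spike-ins or in TPM, 6 of 9 members were positive.

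On the TPM scale the intervals of the libraries were apart for 4 members. Crabp1 and Aldh1a1 were higher in replicate 2, as were 6.63% of all genes by that rule, and Rxra and Rxrb were lower, as were 42.1%. On that scale the median log2 ratio of all genes, with a pseudocount of 1, was -0.12.

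**Figure D4:**
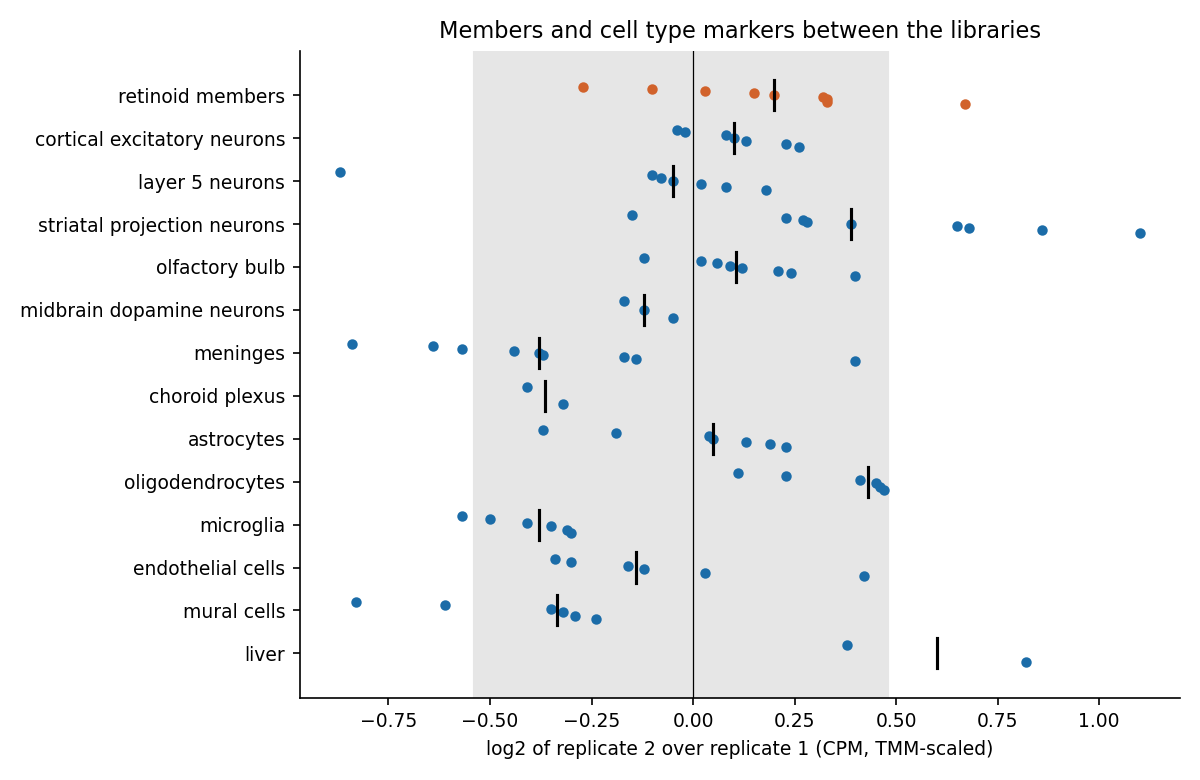
Log2 ratio of replicate 2 to replicate 1 (x axis) of the 9 retinoid genes and of each marker list (y axis), 1 point per gene at 1 TPM or more, with a bar at each median and the central 95% of all genes in grey. Striatal markers had a median of 0.39 and meninges markers -0.38, with the members at 0.20.

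Cell type markers also moved between the libraries. Of 14599 genes at a mean of 1 TPM or more, 1.71% were past 1.5-fold higher in replicate 2 and 2.14% lower. Of any size, 7224 had a positive ratio and 7374 a negative one. Among 9 striatal markers at 1 TPM or more, 4 were past 1.5-fold higher in replicate 2 (among them Drd2, Adora2a and Ppp1r1b). The striatal list had 8 positive ratios and 1 negative, from -0.15 to 1.10 on the log2 scale, with a median of 0.39 and Penk at 0.23. Its most abundant genes were Penk, at 102 and 116 TPM, and Ppp1r1b, at 53.7 and 77.0 TPM. Oligodendrocyte markers, led by Mbp at 983 and 1275 TPM, had a median of 0.43, with 6 of 6 positive. Microglia markers, led by C1qb at 66.8 and 49.4 TPM and C1qa at 48.0 and 33.3 TPM, had a median of -0.38, with 6 of 6 negative. Mural cell markers, led by Vtn at 103 and 89.0 TPM and Rgs5 at 46.5 and 33.1 TPM, had -0.34, with 2 of 6 past 1.5-fold lower (Acta2 at -0.61 and Myh11 at -0.83), and endothelial markers, led by Ly6c1 at 90.5 and 124 TPM and Itm2a at 66.3 and 49.1 TPM, had -0.14. Of 9 meninges markers, with a median of -0.38, 2 were past 1.5-fold lower, Ogn at -0.84 and Slc22a6 at -0.64. The 2 of 6 liver markers at 1 TPM or more had a median of 0.60, and Apoa1 was past 1.5-fold higher. Astrocyte markers, led by Aldoc at 674 and 703 TPM and Slc1a3 at 237 and 187 TPM, had 0.05. Layer 5 markers had -0.05, with Crym past 1.5-fold lower at 41.6 and 20.9 TPM and Etv1 at 24.3 and 20.9 TPM. Of the choroid plexus markers 2 of 7 reached 1 TPM, Aqp1 at 10.1 and 7.42 TPM and Kcnj13 at 1.79 and 1.23 TPM. The part of these cell types in the ratios of Crabp1, Rara, Rbp4, Aldh1a1 and Rxra was not tested.

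**Figure D5:**
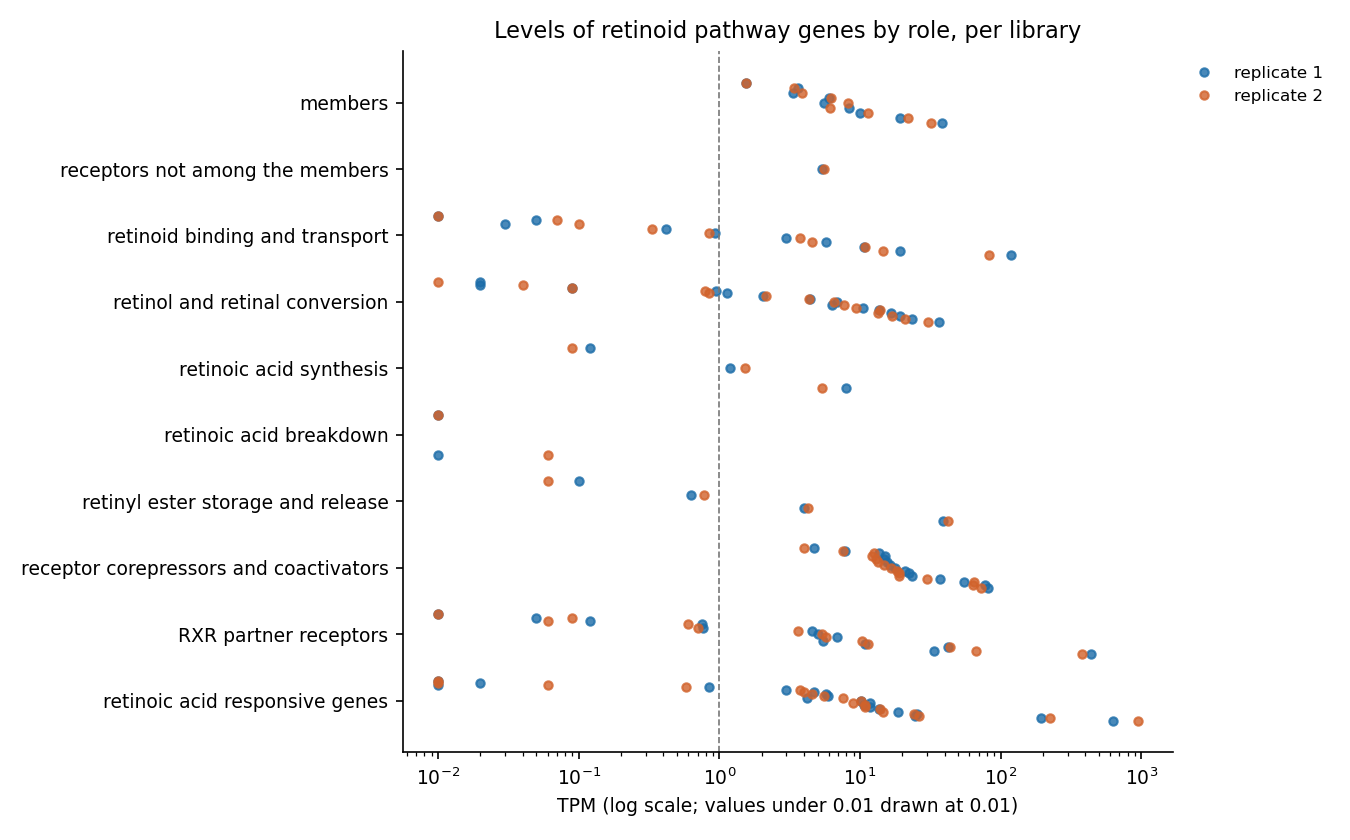
TPM (x axis, log scale, values under 0.01 drawn at 0.01) of the 9 members and of the other retinoid pathway genes by role (y axis), 1 point per gene and library, with a dashed line at 1 TPM. The 2 further Cyp26 genes lie under 0.1 TPM, and all 15 receptor corepressors and coactivators lie above 1 TPM.

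The wider pathway was read from 77 further genes in 9 lists, of which 76 were in the files, Pnpla4 being unmatched, and 53 reached 1 TPM. Of these 53, 3 were past 1.5-fold higher in replicate 2 and 0 lower, with a median log2 ratio of 0.04. Of all 14599 genes at a mean of 1 TPM or more, 1.71% were higher and 2.14% lower by that size. The 3 were Nr4a1, an activity-induced nuclear receptor that can pair with RXR, at 33.4 and 66.4 TPM, its relative Nr4a2 at 5.47 and 10.4 TPM, and Rarres2, which encodes chemerin, at 4.18 and 7.62 TPM. Their log2 ratios were 1.12, 1.03 and 0.97.

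The list for retinol and retinal conversion, which also holds carotene cleaving enzymes such as Bco1, had 10 of 15 genes at 1 TPM or more. Adh5 at 36.3 and 30.6 TPM, Dhrs7 at 23.5 and 20.96, Rdh14 at 19.4 and 16.9 and Rdh13 at 16.6 and 13.5 led that list. Esters of retinol are made and opened by a further set, of which Dgat1 at 38.8 and 42.1 TPM and Lipe at 3.97 and 4.27 TPM passed 1 TPM, whereas Lrat, the main retinol esterifying enzyme of liver and eye, had 0.10 and 0.06 TPM. Rpe65, the isomerase of the eye, had 0.63 and 0.78 TPM. Of 10 other binding and transport genes 5 passed 1 TPM. Rbp3 was at 0 counts in both libraries.

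Cofactors of the receptors were all present. All 15 passed 1 TPM, 0 were past 1.5-fold in either direction, where 3.85% of all genes were, and their median log2 ratio was -0.06. Hdac3, the deacetylase of the corepressor complex, had 81.6 and 72.2 TPM, and the corepressor Ncor1 had 76.9 and 63.3 TPM. Carm1, a coactivating methyltransferase, had 36.8 and 30.2 TPM. Among 13 receptors that pair with RXR, 8 passed 1 TPM. Thra, a thyroid hormone receptor, led them at 441 and 379 TPM, above any member in each library, with Nr1h2, the oxysterol receptor, at 42.3 and 43.4 TPM and Ppard at 10.9 and 11.4 TPM. The xenobiotic receptors Nr1i2 and Nr1i3 were under 0.1 TPM.

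Of 19 genes listed as retinoic acid responsive, 15 passed 1 TPM and 1, Rarres2, was past 1.5-fold. Of all genes, 3.85% were past that size in either direction. Neurogranin (Nrgn), a calmodulin-binding protein of forebrain neurons, had 631 and 941 TPM. Meis2, a homeobox gene, had 193 and 223 TPM, Nav2 had 25.3 and 24.2 TPM and Rai1 had 24.7 and 26.2 TPM. Hoxb1, a hindbrain target of retinoic acid in the embryo, had 0 counts in both libraries.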

How the data were processed

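Quantifications of genes and of transcripts, deposited per library by the authors, use mm10 and annotation M4, as their deposited text states. Which aligner and program made them is not given in the sources used here. Values used were the deposited expected counts (estimated fragments), the deposited TPM with interval bounds whose level the files do not state, the deposited percent of a gene's TPM per transcript, and the deposited posterior means and SDs of counts. The authors' interval bounds and posterior SDs, as deposited, were treated as a score.

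Symbols and coordinates came from GENCODE M21, matched by identifier for 42462 of 43346 genes, and promoter windows from RefSeq. Expected counts of annotated genes, without spike-ins, were rounded and scaled with edgeR 4.0.16 (R 4.3.3), prior count 2. Counting intervals were exact conditional binomial at 95%. The 1.5-fold count used genes at a mean of 1 TPM or more. DESeq2 1.42.0 size factors, other scalings, filters and thresholds, posterior means and leaving out each library were alternatives. The ratio script was tested on simulated data. Members, lists, pairs and alternatives were chosen with earlier results of these data known. Named were all members, the fixed pairs, the 4 most abundant genes of each pathway list and those past 1.5-fold, the 2 most abundant markers of each list and those under 0.1 TPM, except some that are not reported here. Stra6, Ttr, Rbp3, Hoxb1, Nr1i2, Nr1i3, Xist, Eif2s3y, Top2b, Bco1, Alb and Ahsg were named after their values were seen. So were Th, Cdhr1, Ntng1, Eomes, Sp8, Tbx21 and the markers past 1.5-fold.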

Additional observations from a re-analysis of the deposited data

How the results depend on the processing

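No paired analysis was possible because there is 1 group. Leaving out 1 library gave 6 to 8 resolved neighbours of 8 instead of 5, the highest without replicate 1, since a single library has no spread to exceed. The log2 ratio of Rxra to Crabp1 ran from -0.43 without replicate 1 to 0.60 without replicate 2. With counts not divided by length, Rbp4 over Rxra became -1.74 and Crabp1 over Rxrg -1.49, since Rbp4 and Crabp1 transcripts are short. Of 13 fixed pairs, 12 had a ratio and 8 were resolved. The pair Cyp26b1 over Cyp26c1 had no ratio because Cyp26c1 had 0 counts. Resolved pairs numbered 9 for posterior mean TPM, 9 with a pseudocount of 1 TPM and 10 for counts not divided by length. The deposited intervals are those of the main TPM, so these counts may not follow the same rule. Members past the size set were 1, and 0 for TPM with a pseudocount of 1, 4 at the lower threshold tried (25% higher or more, or the reciprocal) and 0 at 2-fold. All genes past it in either direction made up 3.85%, and 11.75% at that lower threshold, 1.45% at 2-fold, 11.95% with no filter on low values and 7.39% with edgeR's filterByExpr. Crabp1 ran from 0.49 to 0.68 over the 6 scalings. The leading transcript was the same in 6 of 6 genes under both alternatives. Rescaling TPM to nuclear protein-coding genes multiplied every level by 1.98 in replicate 1 and 2.08 in replicate 2 and left ratios between genes within a library as they were. Depth limits Cyp26a1 and Cyp26c1, with at most 7 counts, and 2 libraries limit every SD.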
